A study of Mus musculus with 4 samples.

Results

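Heparan sulfate is built by a set of enzymes, and 10 mouse genes of that set are described here, out of 32555 genes with an exon length in the deposited table: Ext1, Ndst1, Ndst2, Hs2st1, Hs6st1, Hs6st2, Hs3st1, Hs3st3a1, Hs3st3b1 and Hs3st6. They were taken by gene symbol, after the exon reads of Hs3st6 had been seen in the treated libraries beside 0 reads in the untreated ones. The difference between the groups was therefore part of the choice, and for these 10 genes the values below are a description with no test. All 10 passed the filter on low counts, Hs3st6 and Hs3st1 only through their reads in the treated libraries.

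Heparan sulfate is a long sugar chain attached to core proteins at the cell surface and in the matrix. A polymerase of Ext1 and Ext2 extends the chain, N-deacetylase/N-sulfotransferases (Ndst) then replace acetyl groups by sulfate, an epimerase (Glce) converts glucuronic to iduronic acid, and 2-O-, 6-O- and 3-O-sulfotransferases add further sulfates. The resulting pattern governs binding of growth factors such as fibroblast growth factors, and 3-O-sulfation, the rarest modification, is known for the antithrombin site of heparin.

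RNA was sequenced from 2 libraries of adipose-derived regenerative cells (ADRCs) and 2 libraries of ADRC-derived cells that had received 6 transcription factors (6F). ADRCs are mesenchymal cells cultured from inguinal and axillary fat pads. The ADRC libraries came from untreated passage 2 cells of C57BL/6J mice aged 8 weeks, and their titles also call them αMHC-GFP positive control, which the strain label does not show. The 6F libraries came from cells of C57BL/6-Tg (Myh6-EGFP) MG3Tm; MG3 mice, in which the promoter of the cardiac myosin gene Myh6 drives EGFP. Those cells received the 6 factors by lentivirus and were sorted for GFP 3 weeks later. The factors and the age of the 6F mice are not named in the labels. Transduction, time in culture, sorting and, by the labels, strain cannot be told apart between the groups, and a sort on a Myh6 reporter selects on that promoter's activity. Nothing in the labels ties a library to its own culture or animal, and p-values here may therefore reflect technical spread alone.

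Depth was uneven: ADRC libraries a and b held 2273897 and 2662128 exon reads, and 6F libraries a and b held 7593772 and 6986223. The letters carry no order. By the lane tags in the headers, 6F library a was on lane 1 and the other 3 libraries on lane 2. Cardiomyocyte markers summed to 26.0 and 31.2 CPM (reads scaled to a common library size) in ADRCs and to 4300 and 4230 CPM in 6F, with 7 of 8 markers higher by edgeR. Mesenchymal markers, the labelled cell type, were read in 10 of 10 cases in both groups. They summed to 24238 and 21637 CPM in ADRCs against 11677 and 16077 CPM in 6F. Most of each sum came from Col1a2 and Col1a1, the latter at 13539 and 11775 CPM in ADRCs and 5675 and 8195 CPM in 6F. By edgeR 2 of the 10 were higher (Nt5e and Ly6a) and 5 lower. Macrophage markers summed to 239 and 253 CPM in ADRCs and 10.3 and 106 CPM in 6F, with 0 of 5 higher and 2 lower. Of these sums Lyz2, which was not called, held 167 and 170 CPM in ADRCs and 4.10 and 81.7 CPM in 6F. Mural cell markers summed to 95.3 and 75.7 CPM in ADRCs and 561 and 351 CPM in 6F, most of it in 6F from Mcam at 509 and 290 CPM (29.4 and 22.3 CPM in ADRCs); Mcam and Notch3 were called higher and Cspg4 lower of 6. Endothelial markers summed to 40.0 and 43.7 CPM in ADRCs and 21.7 and 42.7 CPM in 6F, with 1 of 7 higher (Vwf) and 2 lower (Pecam1 and Cdh5). Epithelial markers summed to 63.1 and 70.8 CPM in ADRCs and 19.6 and 40.5 CPM in 6F, with 3 of 5 lower and Cdh1 at 0 reads in 6F. Adipocyte markers summed to 62.1 and 62.3 CPM in ADRCs and 57.0 and 15.3 CPM in 6F, with Pparg and Fabp4 called lower and Plin1 higher of 6. In ADRCs a and b and 6F a and b, Adipoq had 0, 1, 75 and 9 reads and Cfd 0, 1, 134 and 10, neither of them tested, and Lep was at 0 in both groups. The part of these cell types in the values below was not tested. In bulk RNA, fewer cells of a type and less RNA per cell cannot be told apart.

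Chain sulfation genes differed most at the 3-O step, which holds Hs3st6, the gene whose reads prompted the choice of the set. Per kilobase of exon, which allows levels to be compared between genes, Hs3st6 stood at 184 and 77.2 CPM per kb in 6F libraries a and b and at 0 reads in both ADRC libraries. No other member had a group mean above 38.2 ± 2.32 CPM per kb (SD, n = 2), that of Ndst1 in ADRCs. The other 3-O-sulfotransferase genes of the set, Hs3st1, Hs3st3a1 and Hs3st3b1, had means of 0.427 to 5.17 CPM per kb in 6F. The N- and 6-O-sulfation genes Ndst1 and Hs6st1 were lower in both 6F libraries than in both ADRC libraries.

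In ADRCs the levels per kilobase were led by Ndst1 at 38.2 and Hs6st1 at 37.2 ± 1.05 CPM per kb, which did not differ beyond their spread. Ext1 followed at 18.5 and Hs2st1 at 13.1. Ndst2 at 7.64 and Hs6st2 at 7.49 overlapped, as did Hs3st3b1 at 1.30 and Hs3st3a1 at 1.25 CPM per kb. Hs3st1 stood at 0.0907, on 1 read. In 6F, Hs3st6 led at 131 ± 75.7 CPM per kb, then Ndst1 at 21.5 ± 1.06, Ext1 at 15.5, Hs6st1 at 13.7 ± 3.19, Hs2st1 at 11.2, Hs6st2 at 8.98, Ndst2 at 5.66, Hs3st3b1 at 5.17, Hs3st1 at 2.21 and Hs3st3a1 at 0.427 CPM per kb. In that order Ext1 and Hs6st1, Hs6st1 and Hs2st1, Hs2st1 and Hs6st2, and Ndst2 and Hs3st3b1 overlapped between libraries.

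**Figure D1:**
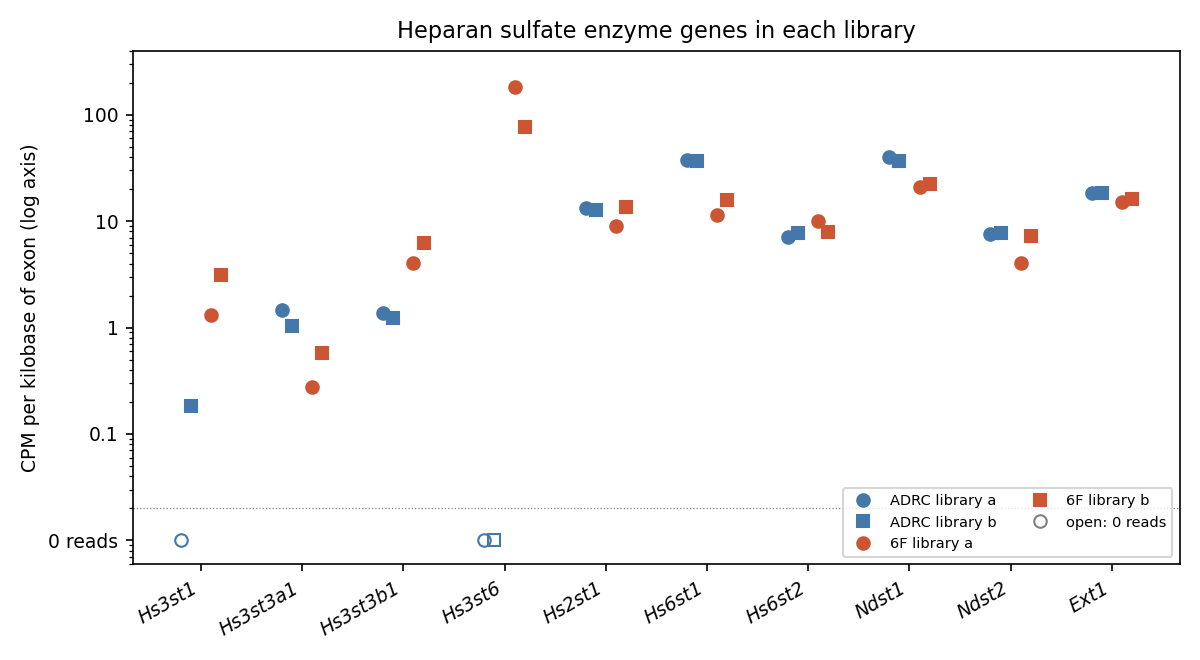
Level of each of the 10 heparan sulfate enzyme genes in each library, in CPM per kilobase of exon on a log axis, with ADRC libraries in blue, 6F libraries in red and open symbols for 0 reads. Hs3st6 is at 0 reads in both ADRC libraries and is the highest gene in both 6F libraries, at 184 and 77.2 CPM per kb.

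Among the 10 genes, 3 passed an adjusted p under 0.05 as higher in 6F (Hs3st1, Hs3st3b1, Hs3st6) and 2 as lower (Hs6st1, Ndst1) in the edgeR fit across all genes. Of all 12573 tested genes 24.2% were called higher and 22.8% lower, 47.0% in all. Since the 10 genes were chosen from this contrast, nothing is read from their count. The alternatives refit the same reads, so nothing is read from the call of a single member either. Libraries did not overlap for 9 of the 10, with 4 higher and 5 lower in 6F, and for 77.8% of all tested genes, 40.5% higher and 37.4% lower. Without ADRC library a, and likewise without ADRC library b, 2 were called higher (Hs3st3b1, Hs3st6) and 1 lower (Hs6st1). Without 6F library b, 3 were called higher (Hs3st3b1, Hs3st6, Hs6st2) and 6 lower (Hs3st3a1, Hs2st1, Hs6st1, Ndst1, Ndst2, Ext1). The median log2 fold change was -0.23 over the 10 and 0.07 over all genes.

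Ext1, on chromosome 15 at 53064038 to 53346159 (GRCm38, minus strand, ENSMUSG00000061731), encodes a subunit of the chain polymerase. Its exon reads were 310 and 371 in ADRCs and 1007 and 966 in 6F, or 149 and 150 CPM against 122 and 130 CPM. Both 6F libraries were lower, and the log2 fold change was -0.25 ± 0.14 (SE). With scaling by library size alone it was -0.022. Ext1 plus its partner Ext2, which the list of members does not include, summed to 33.8 and 33.7 CPM per kb in ADRCs and 29.8 and 27.7 in 6F.

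Ndst1, on chromosome 18 at 60684494 to 60748650 (minus strand, ENSMUSG00000054008), encodes the broadly used N-sulfation enzyme. It had 502 and 548 exon reads in ADRCs and 1044 and 1007 in 6F, which were 242 and 222 CPM against 126 and 135 CPM. The 6F libraries lay 1.77-fold lower, at a log2 fold change of -0.83 ± 0.15, and the call was lost without ADRC library a or b. Ndst1 overlaps Rps14 on the opposite strand, whose exon reads were 726 and 934 in ADRCs and 4580 and 3415 in 6F, and the library kit is not named as strand-marking. With scaling by library size alone the log2 fold change was -0.60.

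Ndst2, on chromosome 14 at 20723730 to 20734562 (minus strand, ENSMUSG00000039308), encodes the N-sulfation enzyme known from mast cell heparin. Its exon reads were 52, 63, 110 and 180 in ADRC a, ADRC b, 6F a and 6F b, or 25.0, 25.5, 13.3 and 24.1 CPM. The ADRC libraries were close together, while 6F library b nearly reached them and 6F library a lay below, giving a log2 fold change of -0.44 ± 0.32. Ndst1 carried 83.6% and 82.5% of the summed N-sulfation level per kilobase in ADRCs and 83.5% and 75.0% in 6F. The sum over the 4 Ndst genes was 47.6 and 44.3 CPM per kb in ADRCs and 24.9 and 29.7 in 6F.

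Hs2st1, on chromosome 3 at 144429706 to 144570181 (minus strand, ENSMUSG00000040151), encodes the only 2-O-sulfotransferase of heparan sulfate. It had 176 and 198 exon reads in ADRCs and 472 and 634 in 6F, which were 84.7 and 80.1 CPM against 57.0 and 85.0 CPM. It was the 1 member whose libraries overlapped between the groups. Its log2 fold change was -0.22 ± 0.22, and it turned to 0.014 with scaling by library size alone and to 0.057 without 6F library a, the library on its own lane.

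Hs6st1, on chromosome 1 at 36068400 to 36106446 (plus strand, ENSMUSG00000045216), and Hs6st2, on the X chromosome at 51387212 to 51681856 (minus strand, ENSMUSG00000062184), encode 6-O-sulfotransferases. Hs6st1 had 293 and 335 exon reads in ADRCs and 352 and 442 in 6F, or 141 and 136 CPM against 42.5 and 59.3 CPM. It was 2.72-fold lower in 6F, at a log2 fold change of -1.44 ± 0.20, which ranged from -1.67 to -1.21 over leaving out each library. Hs6st2 had 116 and 151 exon reads in ADRCs and 651 and 459 in 6F, or 55.8 and 61.1 CPM against 78.6 and 61.6 CPM. The 6F libraries were higher by a small margin, with ADRC library b and 6F library b nearly equal, and the log2 fold change was 0.26 ± 0.19. Hs6st2 passed the threshold as higher only without 6F library b. The Hs6st1 share of the 6-O level per kilobase was 84.1% and 82.3% in ADRCs and 53.2% and 66.9% in 6F, and the summed level was 45.1 and 44.3 against 21.5 and 23.8 CPM per kb. Hs6st3 had 0 reads in all 4 libraries.

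The 3-O-sulfotransferases divide by the chain sites they modify, Hs3st1 being the enzyme of the antithrombin site and Hs3st3a1 and Hs3st3b1 a closely related pair. Hs3st1, on chromosome 5 at 39613935 to 39755475 (minus strand, ENSMUSG00000051022), had 0 and 1 exon reads in ADRCs and 24 and 52 in 6F, or 0 and 0.405 CPM against 2.90 and 6.97 CPM. The pooled ratio was 22.0, with a 95% exact (Clopper-Pearson) interval of 3.83 to 879 that covers counting error only. Without ADRC library a the ratio was 11.9, and without ADRC library b, where the remaining ADRC library had 0 reads, it was at least 3.34-fold against a floor of 3 reads. Leaving out 6F library a gave 31.7 and leaving out 6F library b gave 13.2. The call was lost without either ADRC library, and without 6F library b the gene was below the filter.

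Hs3st3a1, on chromosome 11 at 64435332 to 64522841 (plus strand, ENSMUSG00000047759), had 12 and 10 exon reads in ADRCs and 9 and 17 in 6F, or 5.78 and 4.05 CPM against 1.09 and 2.28 CPM. Both 6F libraries were lower, at a log2 fold change of -1.53 ± 0.56 that did not pass the threshold. Hs3st3b1, on the same chromosome at 63885792 to 63922290 (minus strand, ENSMUSG00000070407), had 14 and 15 exon reads in ADRCs and 166 and 229 in 6F, or 6.74 and 6.07 CPM against 20.0 and 30.7 CPM. It was 3.96-fold higher in 6F, at a log2 fold change of 1.98 ± 0.33, which ranged from 1.68 to 2.27 over leaving out each library.

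These 2 genes share sequence: 10.7% of the 50-base words of Hs3st3a1 transcripts also occur in those of Hs3st3b1, and 8.56% in the other direction. The split of reads between them is therefore uncertain, for Hs3st3a1 with its few reads above all. No other pair of members shared 50-base words.

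The RefSeq start-site windows of 4 members are shown (GRCm38.p6, from 250 bases before to 50 after the start, 5′ to 3′ on the gene's strand). Each pair serves the same step, and its fitted log2 fold changes had opposite signs. Hs6st2 and Hs3st3a1 did not pass the threshold, so neither pair is shown to differ in direction. Capitals mark, on either strand, the box named by its letters CCAAT, the GC box with the letters GGGCGG and the box with the letters TATAAA.
Hs6st1, chr1:36068150-36068449, plus strand: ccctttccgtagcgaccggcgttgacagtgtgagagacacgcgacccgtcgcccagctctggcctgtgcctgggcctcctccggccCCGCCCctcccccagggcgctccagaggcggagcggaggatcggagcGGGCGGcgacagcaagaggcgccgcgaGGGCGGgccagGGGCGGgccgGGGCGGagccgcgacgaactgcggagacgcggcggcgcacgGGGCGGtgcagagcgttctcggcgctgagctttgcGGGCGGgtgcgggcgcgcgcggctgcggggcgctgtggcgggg
Hs6st2, chrX:51681553-51681852, minus strand: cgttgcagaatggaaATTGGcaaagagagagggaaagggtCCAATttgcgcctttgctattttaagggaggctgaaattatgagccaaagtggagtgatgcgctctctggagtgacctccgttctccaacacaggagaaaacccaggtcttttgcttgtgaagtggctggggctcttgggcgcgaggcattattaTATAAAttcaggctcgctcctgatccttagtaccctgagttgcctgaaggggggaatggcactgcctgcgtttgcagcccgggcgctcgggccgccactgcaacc
Hs3st3b1, chr11:63922235-63922534, minus strand: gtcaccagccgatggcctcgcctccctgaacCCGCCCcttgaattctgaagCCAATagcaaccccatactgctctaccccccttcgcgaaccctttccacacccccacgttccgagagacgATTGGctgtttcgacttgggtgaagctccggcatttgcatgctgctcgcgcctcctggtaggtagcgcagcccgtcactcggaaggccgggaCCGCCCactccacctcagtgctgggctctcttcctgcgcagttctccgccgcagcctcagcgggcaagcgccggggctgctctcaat
Hs3st3a1, chr11:64435082-64435381, plus strand: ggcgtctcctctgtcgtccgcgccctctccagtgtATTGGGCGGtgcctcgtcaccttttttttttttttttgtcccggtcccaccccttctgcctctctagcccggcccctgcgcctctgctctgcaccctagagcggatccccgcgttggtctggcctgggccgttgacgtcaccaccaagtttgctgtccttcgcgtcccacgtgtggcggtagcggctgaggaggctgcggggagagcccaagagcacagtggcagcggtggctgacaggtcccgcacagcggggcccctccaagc

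Windows of the pairs differed in these short motifs. Hs6st1 held 7 GC boxes and neither other motif, whereas the Hs6st2 window shown, 1 of 2 for this gene, held 2 CCAAT boxes and a TATAAA starting at -55. The other Hs6st2 window held 1 GC box, at -2, and neither other motif, so the difference within this pair depends on the window. Hs3st3b1 held 2 GC boxes and 2 CCAAT boxes, and Hs3st3a1 a CCAAT box at -215 that overlaps its GC box at -212. Of 32851 such mouse windows 35.7% held a GC box, 37.4% a CCAAT box and 13.6% TATAAA, and of 8 windows of 7 members 6, 5 and 1 did. CCACCC was in 3 of the 8 windows and in 31.5% of all windows, and AGATAA or TGATAA in 0 of the 8 and in 18.6% of all. A match describes letters and not a bound site. Hs3st6 and Ext1 had no window in the table used. Windows on chromosome 18, where Ndst1 lies, were left out for the members but kept among the 32851.

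Hs3st6, on chromosome 17 at 24752988 to 24758684 (plus strand, ENSMUSG00000039628), encodes a 3-O-sulfotransferase and has 2 exons, with a deposited exon length of 1219 bases. It had 0 exon reads in both ADRC libraries, 1862 in 6F library a and 702 in 6F library b, which were 225 and 94.2 CPM. The gene overlaps no other annotated gene. Library a stood above library b, and both stood far above the ADRC floor of 0.659 CPM, the level that a count of 0 allows. Against that floor of 3 reads over the ADRC group, 6F was at least 247-fold higher. Leaving out one library gave a bound of 134 (ADRC a), 113 (ADRC b), 143 (6F a) or 341 (6F b). Without 6F library a the 3 remaining libraries are all on lane 2.

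Among 7498 protein-coding genes with 0 ADRC exon reads, Hs3st6 had the highest mean 6F level, at 159 ± 92.3 CPM (SD, n = 2). The next was Prnd at 119 CPM. Hs3st6 was chosen by these same values, so its rank is a description with no test. Ranked by level per kilobase, Hs3st6 stood 169th and 487th among 21751 protein-coding genes in 6F libraries a and b. The genes with the most similar values over the 4 libraries, by Euclidean distance of log2(CPM + 0.5), were Prnd at 0.570, Gm20388 at 0.617 and Lmod3, an actin filament nucleator of striated muscle, at 0.994. Prnd had 0, 0, 1271 and 632 exon reads and overlaps Prn on the same strand, which had 7, 9, 108 and 25. Gm20388 had 0, 0, 1360 and 524 and spans many other genes. Among them are Cox4i1 on the same strand with 379, 486, 4201 and 2817 reads and Acta1 on the opposite strand with 48, 52, 20334 and 6533. The reads of Prnd and Gm20388 are therefore uncertain. Lmod3 had 0, 1, 1585 and 513 exon reads in ADRC a, ADRC b, 6F a and 6F b.

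The summed level of the 3-O-sulfotransferase genes per kilobase was 2.84 and 2.44 CPM per kb in ADRCs and 190 and 87.7 in 6F, a ratio of means of 52.6. Without Hs3st6 it was 5.84 and 10.4 CPM per kb in 6F, a ratio of 3.08. Hs3st6 made up 96.9% and 88.1% of the 3-O level in 6F. In ADRCs Hs3st3a1 held 51.7% and 42.0% and Hs3st3b1 48.3% and 50.6%, and in 6F Hs3st3b1 held 2.14% and 7.13%. Hs3st2 had 0 reads in all libraries, Hs3st4 had 0, 0, 5 and 5 reads, and Hs3st5 had 0, 0, 0 and 9 reads in ADRC a, ADRC b, 6F a and 6F b.

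**Figure D2:**
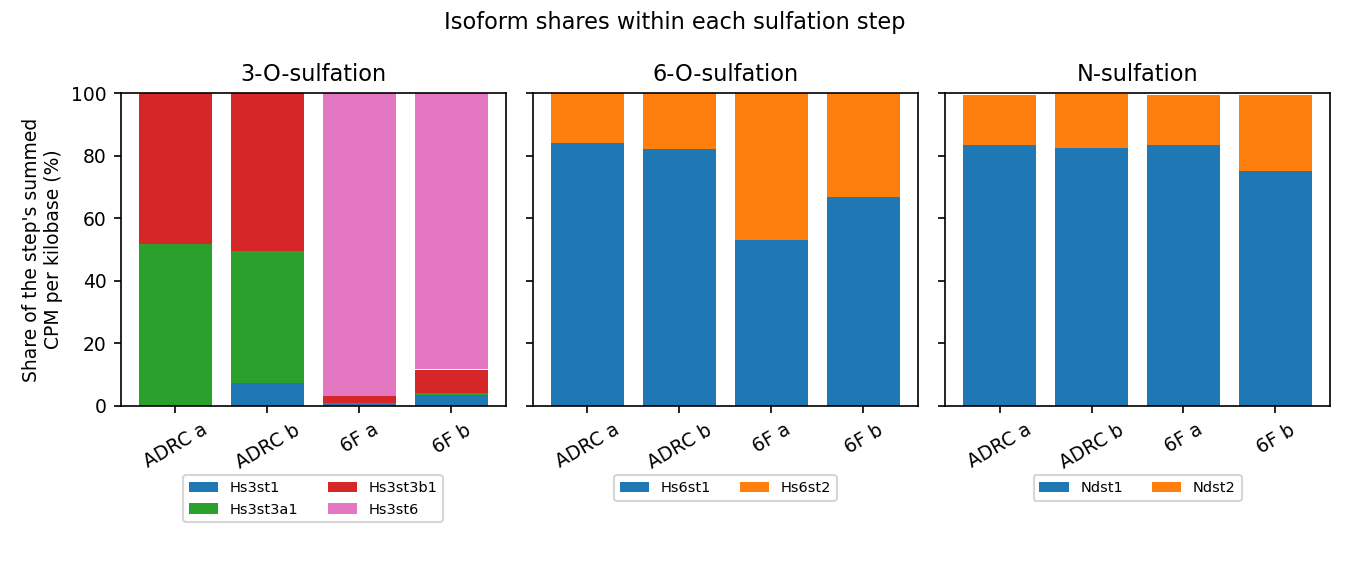
Stacked bars give each gene's share (%) of the summed CPM per kilobase of its sulfation step in each of the 4 libraries, with the 3-O, 6-O and N steps in separate panels and the few reads of genes outside the 10 left blank. Hs3st6 fills 96.9% and 88.1% of the 3-O step in 6F and none in ADRCs, and the Hs6st1 share of the 6-O step goes from 84.1% and 82.3% to 53.2% and 66.9%.

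Genes near Hs3st6 on chromosome 17 were compared, by the rule of the 2 nearest genes with reads on each side. Msrb1, a methionine sulfoxide reductase, starts at -16.346 kb from the start of Hs3st6 and had 90, 117, 3765 and 2307 reads in ADRC a, ADRC b, 6F a and 6F b, with a log2 fold change of 3.07 ± 0.24 (edgeR adjusted p = 0.000325, called in every alternative). Rpl3l had 0, 0, 1 and 1 reads. Meiob, 51.301 kb downstream, had 1, 0, 43 and 38 reads, a pooled ratio of 23.4 with an exact interval of 4.08 to 936. It passed the filter on low counts only through its 6F reads, so its call as higher is a description. Without ADRC library a the Meiob ratio was at least 4.24, and without ADRC library b it was 10.7. Hagh, a glyoxalase pathway hydrolase, starts 87.155 kb downstream and had 11.6 ± 1.38 CPM in ADRCs and 41.2 ± 16.6 CPM in 6F, with a log2 fold change of 1.83 ± 0.35 (edgeR adjusted p = 0.00724), which without ADRC library a became 1.69 (adjusted p = 0.0579). In a window of 250 kb on each side, chosen after the values were seen, 22 other genes were tested. Of these, 6 were higher and 7 lower, with a median log2 fold change of -0.10. Among all tested genes 24.2% were higher and 22.8% lower.

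**Figure D3:**
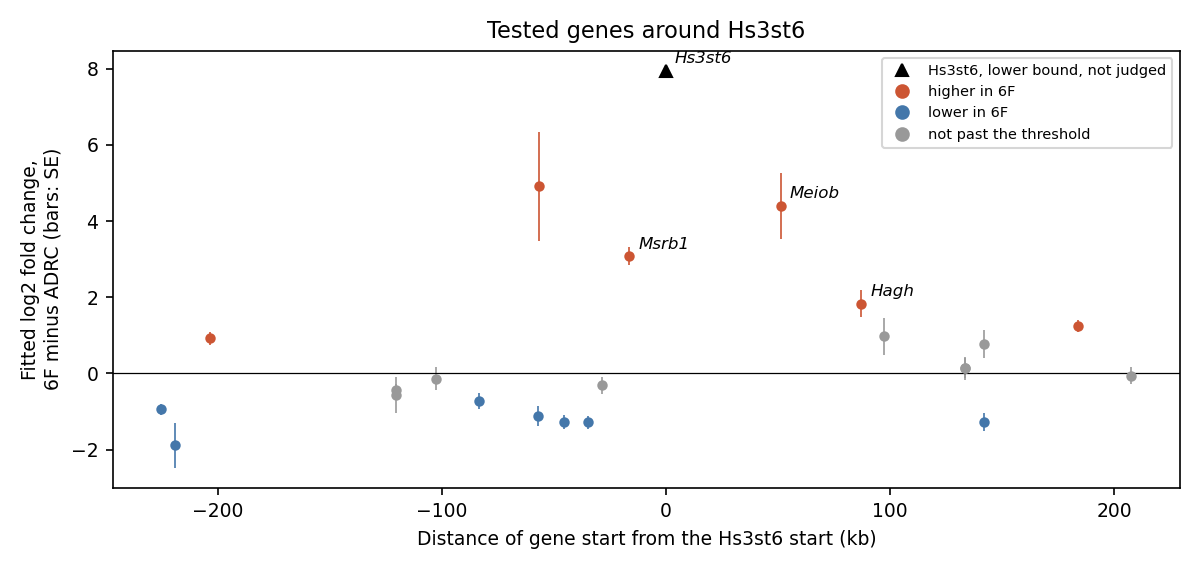
Log2 fold change of 6F minus ADRC with its SE for the tested genes within 250 kb of the Hs3st6 start, against the distance of their starts in kb, with red for higher, blue for lower, grey for not past the threshold and a triangle for the lower bound of Hs3st6. Msrb1, Meiob and Hagh are higher. Among the 22 other genes 6 are higher and 7 lower, beside 24.2% and 22.8% of all tested genes.

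Other heparan sulfate pathway genes were taken from lists that were chosen with earlier results of these data known. Of 53 such genes, 44 were tested in the edgeR fit, with a median log2 fold change of 0.05. Of all tested genes, 24.2% were higher and 22.8% lower, the shares to set beside each list below. Of the 44, 15 were higher (34.1%), 7 lower (15.9%) and 22 not called. Those counts became 3 higher and 1 lower when ADRC library a was left out, 4 and 1 when it was ADRC library b, 20 and 12 for 6F library a, and 20 and 11 for 6F library b. Of the 28 called genes that the naming rule took from these and the 2 lists beyond the pathway, Papss2, Sdc3, Naglu, Ids, Chsy1, Fgfr4 (past the filter only through its 6F reads) and Fgfr2 kept their call in all 8 alternatives. Idua lost it without ADRC library a, Fgfr3 without ADRC library a and with the Wald test, and the other 19 when ADRC library a, and likewise when ADRC library b, was left out. Of these 19, Extl2, B3galt6, Slc26a2 and Chst14 also lost it with the Wald test, and Glce, B3galt6, Papss1 and Chst14 with scaling by library size alone. Among genes that the rule took and that had no call in the main fit, Extl3, Ext2, B3gat3, Bpnt1, Tgfbr3, Gpc4, Gusb, Chpf and Vegfa passed the edgeR threshold without 6F library a. Without 6F library b, Extl3, Ugdh, Hgsnat, Chst11, Chpf, Fgfr1 and Vegfa did. Fits with 1 6F library left take their spread from the ADRC libraries alone. With all 4 libraries, Extl3 was called higher with scaling by library size alone, with no filter and with the Wald test. Tgfbr3 was called higher with scaling by library size alone.

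Chain synthesis genes outside the 10 had 4 of 11 tested, 1 of them higher and 1 lower, with a median log2 fold change of 0.29. Extl2, a glycosyltransferase of the linker region, rose from 22.9 ± 2.47 to 40.7 ± 9.01 CPM (log2 fold change 0.82 ± 0.24, edgeR adjusted p = 0.0299), a call that the DESeq2 Wald test did not make (adjusted p = 0.0713). Glce, the epimerase, fell by 0.64 ± 0.18 on the log2 scale (edgeR adjusted p = 0.0280), a call that scaling by library size alone ended. Extl3, which starts the chain, had 142 and 245 CPM in ADRCs and 6F. Its edgeR adjusted p was 0.0640, and the DESeq2 Wald test gave an adjusted p of 0.0400. Ext2 had 112 and 96.5 CPM (edgeR adjusted p = 0.362).

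The linker that joins the chain to its core protein had 6 genes tested, 2 higher and 2 lower, with a median of -0.33. Xylt1, which starts the linker, rose by 0.83 ± 0.21 on the log2 scale (edgeR adjusted p = 0.0188), and the xylose kinase Fam20b by 0.71 ± 0.15 (edgeR adjusted p = 0.00978). The galactosyltransferases B4galt7 and B3galt6 fell by 1.05 ± 0.22 and 1.09 ± 0.36 (edgeR adjusted p = 0.0107 and 0.0457). B3galt6 also lost its call with scaling by library size alone and with the Wald test.

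Supply of sulfate donor and sugar nucleotides had 11 genes tested, 2 higher, 3 lower and 6 not called, with a median of -0.26. The sulfate donor synthases Papss2 and Papss1 fell, Papss2 from 39.2 ± 5.12 to 12.7 ± 2.02 CPM (log2 fold change -1.63 ± 0.23, edgeR adjusted p = 0.00252) and Papss1 by 0.89 ± 0.25 (edgeR adjusted p = 0.0267). Ugp2, which makes UDP-glucose, and the sulfate transporter Slc26a2 rose by 1.12 ± 0.23 and 0.84 ± 0.25 (edgeR adjusted p = 0.00867 and 0.0332). The Papss1 call was lost with scaling by library size alone and the Slc26a2 call with the Wald test.

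Core proteins had 13 of 14 genes tested, 4 higher, 1 lower and 8 not called, with a median of 0.33. Sdc3, a membrane syndecan, rose from 128 ± 2.71 to 530 ± 60.2 CPM (log2 fold change 2.05 ± 0.16, edgeR adjusted p = 0.000363), and Sdc4 and Gpc1 rose by 1.01 ± 0.25 and 0.80 ± 0.16 (edgeR adjusted p = 0.0182 and 0.00755). Perlecan, Hspg2, fell from 1854 ± 361 to 1067 ± 78.3 CPM (edgeR adjusted p = 0.0176). Extracellular editing had 3 of 4 genes tested and 2 higher, with a median of 0.68: the 6-O-endosulfatases Sulf1 and Sulf2 rose by 0.84 ± 0.21 and 0.68 ± 0.18 (edgeR adjusted p = 0.0183 and 0.0217). Their summed level was 27.6 and 24.2 CPM per kb in ADRCs and 39.7 and 48.4 in 6F, while the summed 6-O-sulfotransferase level was lower, as given above.

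Lysosomal breakdown had 7 genes tested, with a median of 0.90. Beside 24.2% higher and 22.8% lower among all tested genes, 4 of the 7 were higher, 0 lower and 3 not called by edgeR. At an unadjusted p under 0.05 the lower count was 0, and by the DESeq2 Wald test it was 0. Naglu rose from 16.2 ± 2.29 to 78.1 ± 18.1 CPM (log2 fold change 2.28 ± 0.25, edgeR adjusted p = 0.00103), Ids by 1.73 ± 0.17 (edgeR adjusted p = 0.000702) and Idua by 1.63 ± 0.29 (edgeR adjusted p = 0.00565). Without ADRC library a, the Idua change was 1.29 (edgeR adjusted p = 0.0541).

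**Figure D4:**
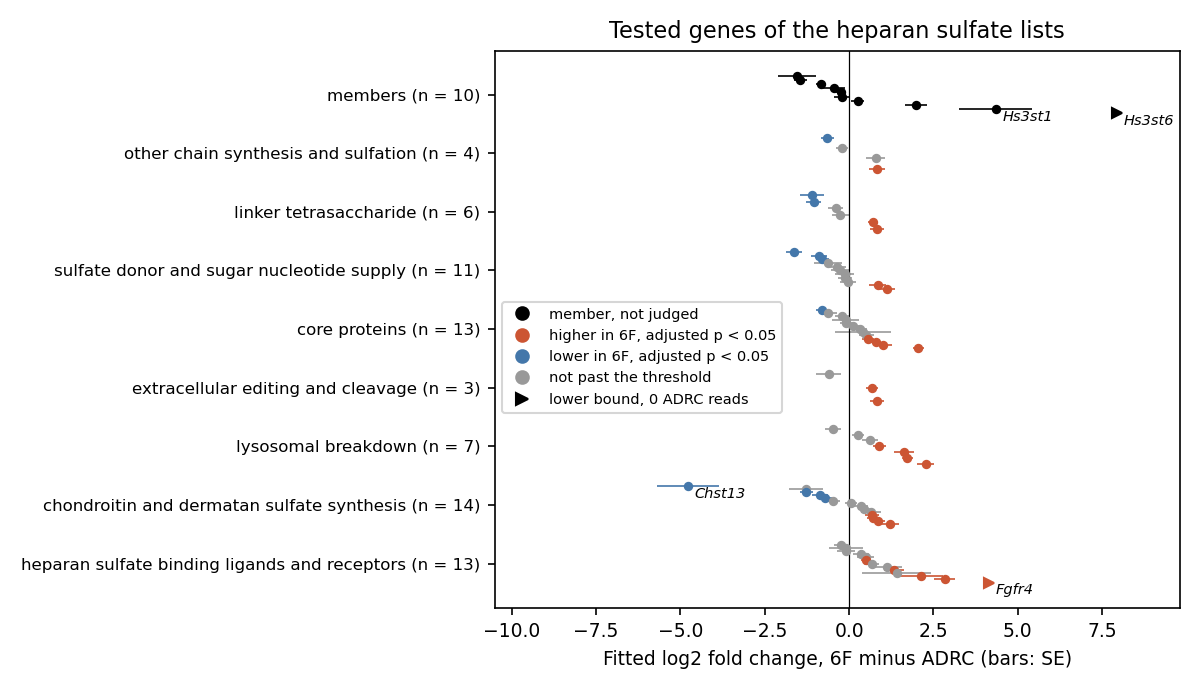
Log2 fold change of 6F minus ADRC with its SE for the tested genes of each list, with red for higher, blue for lower, grey for not past the threshold, black for the 10 described genes without judgement and triangles for lower bounds where ADRCs had 0 reads. Hs3st6 lies farthest right, and in the lysosomal list 4 of 7 genes are higher, beside 24.2% of all tested genes.

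Chondroitin and dermatan sulfate synthesis, a related route to a different chain, had 14 of 16 genes tested, 4 higher, 4 lower and 6 not called, with a median of 0.20. Chsy1, a chondroitin synthase, fell from 111 to 46.2 CPM (log2 fold change -1.27 ± 0.20, edgeR adjusted p = 0.00348) and Chst15 rose by 1.20 ± 0.27 (edgeR adjusted p = 0.0122). Chst13 had 6, 13, 2 and 0 reads, an ADRC to 6F ratio of 32.9 with an exact interval of 7.93 to 291 (edgeR adjusted p = 0.00737). That ratio was 41.4 without ADRC library a (edgeR adjusted p = 0.0510), 22.7 without ADRC library b, where the gene fell below the filter, and 17.3 without 6F library b. Without 6F library a, Chst13 was at least 10.4-fold higher in ADRCs against 3 reads over the 6F group. Ligands and receptors that bind heparan sulfate had 13 of 16 tested, with a median of 0.67. Beside 24.2% higher and 22.8% lower among all tested genes, 5 of the 13 were higher, 0 lower and 8 not called by edgeR. The lower count was 0 at an unadjusted p under 0.05 and 0 by the DESeq2 Wald test. Fgfr4, 1 of the 5, had 0, 0, 67 and 116 reads and passed the filter on low counts only through its 6F reads. Its call is therefore a description. It was at least 17.6-fold higher in 6F against 3 reads over the ADRC group. Leaving out one library gave bounds of 9.58 (ADRC a), 8.05 (ADRC b), 23.6 (6F a) and 12.3 (6F b). Fgfr2 rose from 11.6 ± 1.38 to 82.9 ± 27.7 CPM (edgeR adjusted p = 0.000995), Cxcl12 by 1.32 ± 0.29 on the log2 scale (edgeR adjusted p = 0.0121), and Fgfr3 by 2.13 ± 0.65 (edgeR adjusted p = 0.0362), which became 1.43 without ADRC library a (adjusted p = 0.194) and 3.73 without ADRC library b (adjusted p = 0.0493). Fgfr1 at 337 and 284 CPM and Vegfa at 248 and 233 ± 176 CPM did not pass the threshold (edgeR adjusted p = 0.370 and 0.890). Without 6F library b the log2 fold change was -0.52 for Fgfr1 and -1.16 for Vegfa, and without 6F library a that of Vegfa was 0.54. A fit with 1 6F library left takes its spread from the ADRC libraries alone, so it does not measure spread between 6F libraries.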

How the data were processed

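Ribosomal RNA was removed from total RNA of 2 ADRC and 2 6F samples, per the labels' protocols. The library kit is not named there as strand-marking, so whether antisense reads were told apart is not known. Reads refer to GRCm38, per the submitters' processing notes. The aligner was not given in the sources used here, nor was the counter.

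Per the file headers, a table of 50600 genes deposited by the authors holds total exon reads per library as whole-number counts, and an exon length, of another unit (bases), which is 0 for 18045 genes that were left out. Column names carry the group and no replicate number, so libraries are called a and b, and 1 measure was used. The other 52 columns of per-sample values, 13 per library and among them unique, junction and intron reads, were not used.

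The fit used R 4.3.3 with edgeR 4.0.16 and limma 3.58.1: filterByExpr, TMM scaling, the quasi-likelihood test, and Benjamini-Hochberg adjustment over 12573 genes with a threshold of 0.05. CPM use TMM-scaled sizes, and CPM per kb divides by the deposited exon length. A fold against 0 reads uses a floor of 3 reads over the group, or over the library where 1 remains. With 1 to 3 reads the ratio has a 95% exact interval. Intervals and floors cover counting error only. Positions are from GENCODE M21, and promoter windows from RefSeq.

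The 10 genes and all gene lists were chosen with earlier results of these data known. The genes named were all 10, in each list at most 4 called genes by size of change and 2 not called by CPM, the 2 nearest genes with reads on each side of Hs3st6 and the 3 genes nearest to it in pattern. From the lists, 1 gene is not reported here. Alternatives tried were DESeq2 1.42.0 size factors, library-size scaling, no filter, the DESeq2 Wald test, and leaving out each library. The procedure was tested on simulated data with 200 changed genes, far fewer than were called here. That simulation used only genes with ADRC reads, so it does not cover genes without them, such as Hs3st6.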

Additional observations from a re-analysis of the deposited data

How the results depend on the processing

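No paired analysis was possible because the column names carry no replicate number. Leaving out a library leaves 1 in its group, which is then assumed to vary like the others. Over leaving out each library, 1220 to 4454 genes were called higher and 1165 to 4118 lower, and of the other heparan sulfate pathway genes 3 to 20 higher and 1 to 12 lower. With scaling by library size alone, 3 of the latter were lower, and the median log2 fold change of all genes moved from 0.07 to 0.30. With that scaling the log2 fold change was 0.014 for Hs2st1, 0.026 for Ext2, 0.11 for Bpnt1, 0.15 for Gpc4 and 0.13 for Vegfa, each of the opposite sign to the reported one. Over leaving out each library it ranged from -0.50 to 0.057 for Hs2st1, -0.35 to 0.10 for Bpnt1, -0.31 to 0.15 for Gpc4, -0.090 to 0.22 for Chst11, -0.52 to 0.012 for Fgfr1 and -1.16 to 0.54 for Vegfa. With all 4 libraries none of these genes was past the threshold, but without 1 of the 6F libraries each was in at least 1 fit, Vegfa in both directions. Such a fit takes its spread from the ADRC libraries alone, so these calls do not measure spread between 6F libraries. The cause of the changes in sign was not tested. Of the 10 described genes, the same 3 were called higher and 2 lower with DESeq2 size factors, library-size scaling, no filter, the Wald test and without 6F library a. The alternatives with uniquely mapped reads and with the replicate number as a block were not run. Low ADRC depth limits genes with few ADRC reads, such as Hs3st1 and Hs3st3a1.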
